A study of Rattus norvegicus with 6 samples.

Results

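Elastic fibre and microfibril genes were examined in neonatal rat cardiac fibroblasts (NRCFs), which are primary cells taken from newborn rat hearts. The genes were chosen by name, from what their products do, with earlier results of these data known. They are Eln, Fbn1, Fbn2, Fbln1, Fbln2, Fbln5, Efemp1, Efemp2, Mfap4 and Mfap5. Of these 10 genes, 9 were found among the 21857 gene symbols of the count tables, and all 9 were among the 12941 genes with enough counts to be tested. Mfap4 is not analysed here.

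Bulk RNA-seq was performed on 6 libraries. In 3 libraries, with the genotype label WT, the cells had received the control plasmid (Vector). The other 3 were labelled FTO overexpression, for cells given a pcDNA plasmid with the rat coding sequence of FTO, an enzyme that removes the N6-methyladenosine mark from RNA. The design names Sprague-Dawley rats no older than 3 days, while the strain field of the labels reads "Noway". The labels do not say whether replicates came from separate cultures or animals. The p-values therefore rest on the spread between these libraries, moderated over genes, and this spread may be technical.

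Elastic fibres give stretch and recoil to vessels, valves and the cardiac interstitium. Their core is elastin, encoded by Eln, which is secreted as soluble tropoelastin and cross-linked by lysyl oxidases. The core is laid down on microfibrils of fibrillin (Fbn1, Fbn2), which also hold latent TGF-β in the matrix. Fibulins join the parts: fibulin-4 (Efemp2) and fibulin-5 (Fbln5) are needed to guide tropoelastin and the cross-linking enzymes onto the scaffold.

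Sequencing depth and the labels were checked first. Levels are given as TMM-scaled counts-per-million values (CPM), and changes as the log2 fold change (log2FC) of the libraries labelled FTO over the Vector libraries with its standard error (SE). A gene was taken as changed where the p-value, adjusted over all tested genes, was under 0.05 in the quasi-likelihood test of edgeR. Total counts ran from 13178952 to 17857999 per library. Fto was at 88.3 ± 1.20 CPM in Vector and 92.3 ± 1.32 CPM in the libraries labelled FTO (SD, n = 3 each). Its log2FC was 0.06 (SE 0.05, edgeR adjusted p = 0.239), so a rise was not detected, and every direction given here is that of the libraries labelled FTO. All 7 fibroblast markers on the list used were detected and tested, at a summed level of 3913 to 4087 CPM in Vector and 8667 to 9018 CPM in the libraries labelled FTO. They moved both ways, with 4 higher and 3 lower, where 33.2% of all tested genes were higher and 32.8% lower. Dcn (decorin) rose from 47.0 ± 1.57 to 5611 ± 221 CPM, more than the whole rise of the sum. Vim (vimentin) fell from 3161 ± 104 to 1250.3 ± 72.8 CPM, and Ddr2 and Tcf21 fell too. Genes listed as markers of other cell types also differed. The summed level of 9 smooth muscle and mural markers was 4734 to 4889 CPM in Vector and 1395 to 1458 CPM in the libraries labelled FTO, that of 7 macrophage markers 608 to 617 and 202 to 227 CPM, and that of 6 cardiomyocyte markers 1292 to 1320 and 1860 to 1873 CPM. The 7 endothelial markers summed to 23.5 to 25.2 and 45.3 to 46.7 CPM, with Emcn at 0 counts in every Vector library, and 5 epicardial markers to 46.4 to 53.0 and 181 to 195 CPM. Within these lists, too, single markers went against the sum: Tnnt2 of the cardiomyocyte list (log2FC -0.25), Erg of the endothelial list (-1.55) and Upk3b of the epicardial list (-0.82) were lower, and most of the epicardial rise came from Msln, at 2.83 ± 0.678 and 87.1 ± 5.64 CPM. In bulk RNA, fewer cells of a type and less RNA per cell cannot be told apart. Nor can it be told whether the fibroblasts themselves expressed a marker listed for another cell type.

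Elastin, fibrillin-1, fibrillin-2, fibulin-2 and fibulin-5 mRNA fell in the libraries labelled FTO, while fibulin-1 and the genes of fibulin-3 (Efemp1) and fibulin-4 rose. Eln fell 5.92-fold, Fbln2 and Fbln5 4.01-fold each, Fbn1 2.19-fold and Fbn2 1.61-fold. Efemp1 rose 5.30-fold, Fbln1 2.10-fold and Efemp2 1.81-fold. By that edgeR threshold, 5 of the 9 genes were lower, 3 were higher and 1, Mfap5, did not pass. Over all tested genes 65.9% passed this threshold, 32.8% lower and 33.2% higher, so a count of 8 in 9 has to be read against the large background. At least a 2-fold change with that p-value was reached by 4 of the 9 genes downward and by 2 upward, where 9.27% of all tested genes were that much lower and 10.3% that much higher. CPM of the groups did not overlap in 8 of the 9, against 70.3% of all tested genes. The median log2FC was -0.69 over the 9 genes and 0.00 over all tested genes.

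**Figure D1:**
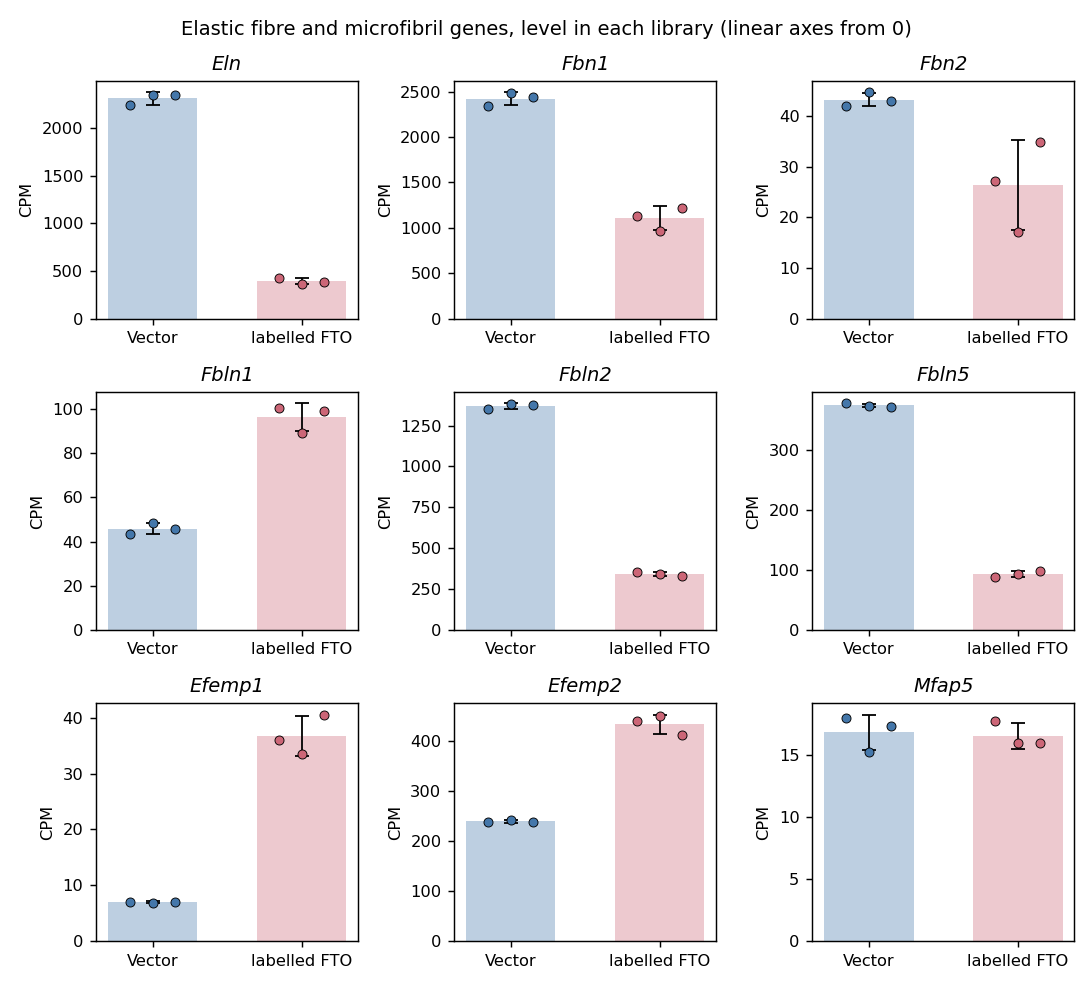
Level of each gene in CPM (TMM-scaled, linear axes from 0) in the 3 Vector libraries and the 3 libraries labelled FTO. Points are libraries in the order of their replicate numbers, bars are means and error bars are SD. Eln, Fbn1, Fbn2, Fbln2 and Fbln5 lie lower in every library labelled FTO than in any Vector library, Fbln1, Efemp1 and Efemp2 lie higher in each, and the groups of Mfap5 overlap.

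The upstream sequences of the fibulin genes that moved in opposite directions are shown here for comparison, 2 that fell (Fbln2, Fbln5) and 2 that rose (Efemp1, Efemp2). Each is the 250 bases before the annotated gene start, 5′ to 3′ on the strand of the gene, from RefSeq on the build GRCr8. The Fbln2 stretch lies at chr4:125261409-125261658 (plus strand), that of Fbln5 at chr6:126742707-126742956 (minus strand), that of Efemp1 at chr14:106811614-106811863 (plus strand) and that of Efemp2 at chr1:212211472-212211721 (plus strand). Capitals mark matches on either strand to GGGCGG, the GC box, and TGANTCA, the core of an AP-1 site.
Fbln2: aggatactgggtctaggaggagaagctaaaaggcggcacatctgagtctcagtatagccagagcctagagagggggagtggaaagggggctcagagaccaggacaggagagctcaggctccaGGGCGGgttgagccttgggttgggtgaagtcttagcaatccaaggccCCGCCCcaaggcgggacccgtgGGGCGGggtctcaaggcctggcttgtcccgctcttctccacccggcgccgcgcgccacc
Fbln5: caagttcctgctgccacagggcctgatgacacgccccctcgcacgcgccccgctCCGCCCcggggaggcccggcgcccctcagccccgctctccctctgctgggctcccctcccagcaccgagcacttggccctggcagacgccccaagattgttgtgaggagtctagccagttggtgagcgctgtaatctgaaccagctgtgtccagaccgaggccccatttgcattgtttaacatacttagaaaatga
Efemp1: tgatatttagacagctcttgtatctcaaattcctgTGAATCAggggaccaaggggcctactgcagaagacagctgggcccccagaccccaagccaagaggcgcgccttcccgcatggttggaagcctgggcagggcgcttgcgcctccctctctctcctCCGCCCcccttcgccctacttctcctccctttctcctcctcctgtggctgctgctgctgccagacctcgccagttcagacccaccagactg
Efemp2: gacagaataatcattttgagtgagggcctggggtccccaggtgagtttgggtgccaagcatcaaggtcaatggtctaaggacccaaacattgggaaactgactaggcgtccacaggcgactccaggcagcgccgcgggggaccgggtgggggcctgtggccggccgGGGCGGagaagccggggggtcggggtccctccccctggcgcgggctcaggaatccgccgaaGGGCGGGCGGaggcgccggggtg

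Of the 7 windows that matched one of the 10 genes, 4 held a GC box, and these are the 4 printed: there were 3 matches each in Fbln2 and Efemp2 (the last 2 of Efemp2 overlap) and 1 match each in Fbln5 and Efemp1. The windows of Fbn1, Fbn2 and Mfap5 held none, and 30.5% of 33469 promoter windows of the same length held one. TGANTCA occurred in Efemp1 only, and in 6.34% of all windows. Neither TATAAA (12.9% of all windows) nor a CArG box (1.5%) was found in any of the 7 windows, and CAGACA (17.2%) was found only in Fbn1, once. GC content was 64% in Fbln2, 63.2% in Fbln5, 61.2% in Efemp1 and 68% in Efemp2, and the median of all windows was 51.2%. In the windows without a GC box it was 71.2% in Fbn1, 70% in Fbn2 and 51.6% in Mfap5. GC boxes thus occurred upstream of fibulin genes of both directions. No window matched Eln, Fbln1 or Mfap4.

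Elastin was examined first. Eln was at 2239, 2347 and 2353 CPM in the 3 Vector libraries, in the order of their replicate numbers as for every gene that follows, and at 423, 360 and 388 CPM in the libraries labelled FTO. The lowest Vector library thus stood far above the highest library labelled FTO. The log2FC was -2.57 (SE 0.05, edgeR adjusted p = 2.3e-15), and only 1.78% of tested genes had a lower log2FC. By CPM, which takes no account of transcript length, Eln ranked 33 among the tested genes in Vector and 399 in the libraries labelled FTO. Its share of the counts of the 9 genes was 33.9% ± 0.258 in Vector and 15.4% ± 0.736 in the libraries labelled FTO (SD, n = 3). Smooth muscle markers moved in the same direction as Eln: of 8 tested, 7 were lower (32.8% of all tested genes were), with a median log2FC of -2.88 over the 8, among them Myh11 (smooth muscle myosin) at -3.53 and Tagln (transgelin) at -3.86, whereas Des (desmin) was higher at 2.45. Their part in the difference of Eln was not tested.

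The fibrillins form the microfibril scaffold. Fbn1 was at 2345, 2481 and 2442 CPM in the 3 Vector libraries and at 1133, 965 and 1222 CPM in the 3 libraries labelled FTO. All values of one group lay apart from those of the other, but the spread was wider in the libraries labelled FTO, with a coefficient of variation of 11.8% against 2.90% in Vector. The log2FC of Fbn1 was -1.13 (SE 0.07, edgeR adjusted p = 5.2e-10).

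Fbn2, the fibrillin best known from developing tissues, had far fewer counts. Vector replicates 1, 2 and 3 held 42.0, 44.7 and 43.1 CPM of it, and the libraries labelled FTO held 27.1, 17.1 and 34.96 CPM. The groups did not overlap, yet the libraries labelled FTO differed 2.04-fold among themselves, against 1.06-fold in Vector. In counts these were 387, 227 and 626, and their chi-square per degree of freedom, which is near 1 for counting error alone, was 44.3, against 0.608 in Vector. The log2FC was -0.69 (SE 0.16), with a 95% confidence interval from -1.03 to -0.35 (edgeR adjusted p = 0.00129). These values rest on a spread taken jointly over both groups and moderated over genes, not on that of the libraries labelled FTO alone. It was -0.96 without FTO replicate 3 and -0.47 without FTO replicate 2, so these libraries set the size of the difference, though not its direction.

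To compare the fibrillins without any scaling between libraries, the share of Fbn2 in the counts of both was taken. The share was 1.76%, 1.77% and 1.73% in the Vector libraries and 2.34%, 1.75% and 2.78% in the libraries labelled FTO. FTO replicate 2 lay within the range of Vector, and the other two lay above it. For FTO replicate 2 the Wilson 95% interval was 1.53% to 1.99%, and for FTO replicate 3 it was 2.57% to 3.00%. The means differed by 0.535 percentage points, with p = 0.3 in a two-sided exact permutation test, in which 3 libraries against 3 cannot go below 0.1. Without FTO replicate 3 the difference was 0.289 percentage points and without FTO replicate 2 it was 0.806.

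The fibulins were then compared with each other. Fbln2, whose product binds fibrillin, elastin and basement membrane proteins, was at 1349, 1380 and 1376 CPM in Vector and at 355, 341 and 329 CPM in the libraries labelled FTO. Fbln5 was at 377, 374 and 371 CPM in Vector and at 88.7, 93.0 and 98.0 CPM in the libraries labelled FTO. Coefficients of variation within a group ran from 0.821% to 4.99% for these genes, and the groups lay apart. The highest and lowest libraries labelled FTO differed 1.08-fold for Fbln2 and 1.10-fold for Fbln5. This was more than counting error, at 8.03 and 3.70 chi-square units per degree of freedom. The log2FC was -2.002 (SE 0.04) for Fbln2 and -2.003 (SE 0.05) for Fbln5, and edgeR gave adjusted p-values of 1.9e-15 and 6.8e-15.

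Efemp2 encodes fibulin-4, which binds lysyl oxidase and is required for elastic fibres in arteries. The gene was at 238, 242 and 237 CPM in Vector and at 438, 449 and 412 CPM in the libraries labelled FTO. All 3 libraries labelled FTO were above all 3 Vector libraries, by a log2FC of 0.86 (SE 0.04, edgeR adjusted p = 9.2e-11). Efemp1 encodes fibulin-3, which is abundant in eye and fascia. It was at 7.02, 6.78 and 7.06 CPM in Vector, from 96 to 102 counts per library, and at 36.1, 33.5 and 40.6 CPM in the libraries labelled FTO. From this low level it showed the largest rise of the 9 genes, a log2FC of 2.40 (SE 0.10, edgeR adjusted p = 9.2e-12). Fbln1, which encodes a fibulin found in elastic tissue, basement membranes and blood, was at 43.5, 48.3 and 45.7 CPM in Vector and at 100.6, 89.2 and 99.3 CPM in the libraries labelled FTO. The groups were again separate, and the log2FC was 1.07 (SE 0.06, edgeR adjusted p = 5.8e-10).

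The mix of fibulin counts differed between the groups. Fbln2 made up 67.3% ± 0.293 of the counts of the 5 fibulin genes in Vector and 34.1% ± 0.658 in the libraries labelled FTO (SD, n = 3). Efemp2 made up 11.7% ± 0.0960 and 43.2% ± 1.29, so that it held more counts than Fbln2 in each library labelled FTO and fewer in each Vector library. The share of Fbln5 was 18.4% ± 0.291 and 9.32% ± 0.655, that of Fbln1 2.25% ± 0.0977 and 9.63% ± 0.671, and that of Efemp1 0.342% ± 0.0100 and 3.67% ± 0.423. These are shares of counts and not of molecules, since transcript lengths were not used.

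**Figure D2:**
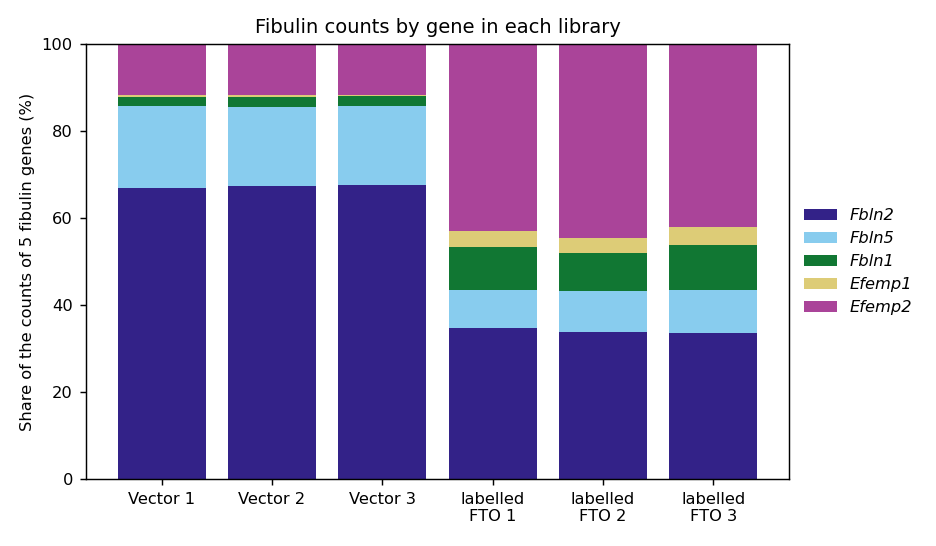
Share of the counts of 5 fibulin genes (vertical axis, percent) taken by each gene in each of the 6 libraries. Fbln2 takes 67.0% to 67.6% of each Vector bar and 33.6% to 34.9% of each bar of the libraries labelled FTO, and Efemp2 takes 11.6% to 11.8% and 42.1% to 44.6%.

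Mfap5 encodes microfibril-associated glycoprotein 2, a small protein bound to fibrillin microfibrils. It was at 17.9, 15.2 and 17.3 CPM in Vector and at 17.7, 15.9 and 15.9 CPM in the libraries labelled FTO. All libraries labelled FTO lay within the range of Vector, and the log2FC was -0.02 (SE 0.10, edgeR adjusted p = 0.832). The 95% confidence interval of its fold, from 0.853 to 1.13, shows how large a difference these libraries could have held. Its counts, 245 per library on average, spread within the groups about as counting error does, at 1.72 chi-square units per degree of freedom in Vector and 0.984 in the libraries labelled FTO.

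**Figure D3:**
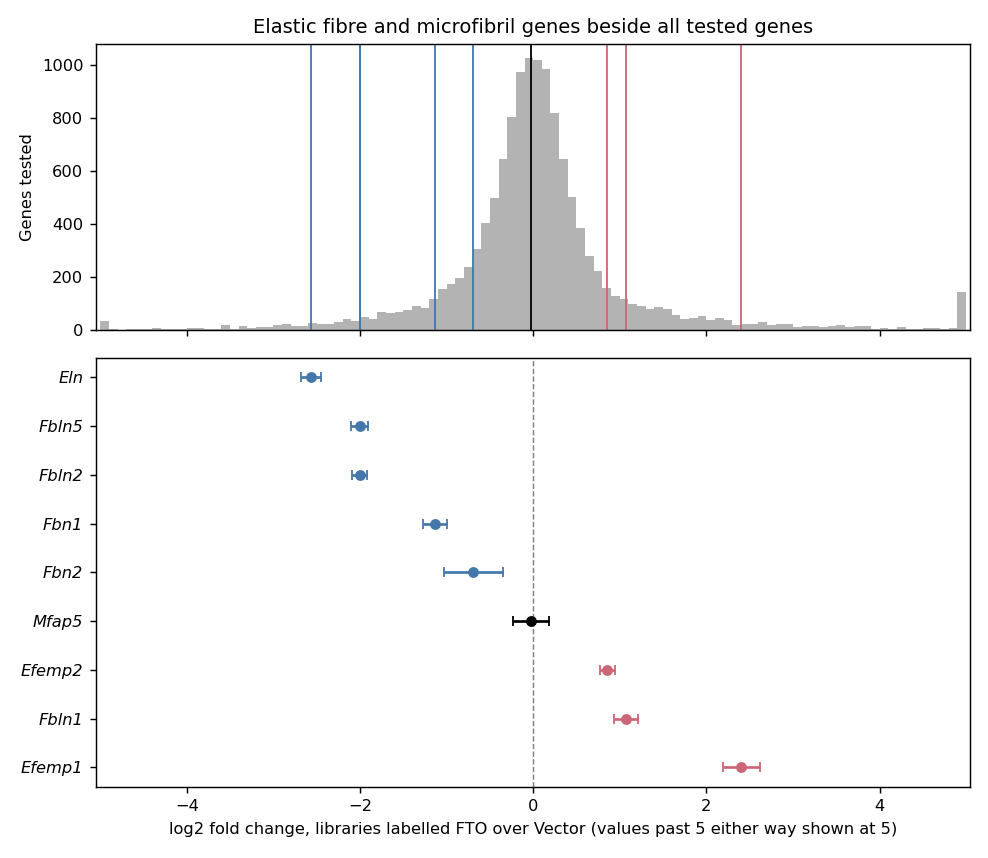
Top, number of tested genes by log2FC between the groups (bins of 0.1), with a line for each of the 9 genes, blue if lower, red if higher and black if not past the adjusted threshold. Bottom, the log2FC of each gene with its 95% confidence interval, from -2.57 for Eln to 2.40 for Efemp1, with Mfap5 at -0.02 on the zero line.

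Summed over the 9 genes, the level was 6659 to 6939 CPM in Vector and 2363 to 2640 CPM in the libraries labelled FTO. Eln, Fbn1 and Fbln2 together held 89.1% to 89.5% of these counts in Vector and 70.5% to 73.5% in the libraries labelled FTO, so the sum follows chiefly these 3 genes.

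Other genes of elastic fibre assembly moved in both directions. Of 25 listed by function, 24 had a row and 21 were tested. By the edgeR threshold, 12 were lower, 6 were higher and 3 did not pass, where 32.8% of all tested genes were lower and 33.2% higher. The median log2FC was -0.33, against 0.00 over all tested genes. Among the latent TGF-β binding proteins, Ltbp4, whose product binds fibulin-5 and aids the deposition of elastin, fell from 272 ± 2.45 to 46.8 ± 3.44 CPM, a log2FC of -2.54 (SE 0.05, edgeR adjusted p = 2.2e-15). Ltbp2, whose product binds fibrillin-1, fell from 879 ± 8.45 to 322 ± 16.8 CPM, a log2FC of -1.45 (SE 0.04). Ltbp3 was lower by a smaller amount (-0.46) and Ltbp1 was higher (0.81). The latent TGF-β binding proteins therefore did not move as one.

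The enzymes that cross-link elastin parted in the same manner. Lox, the lysyl oxidase of collagen and elastin, rose from 765 ± 7.57 to 1970 ± 16.6 CPM, a log2FC of 1.37 (SE 0.04). Loxl1, which is needed to renew elastic fibres, fell from 351 ± 13.04 to 174 ± 2.88 CPM, a log2FC of -1.01 (SE 0.04). Loxl2 was lower (-0.63), and Loxl3 (0.59) and Loxl4 (0.48) were higher. Adjusted p-values in the edgeR test were 4.3e-14 for Lox and 1.2e-11 for Loxl1.

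Of the other assembly genes, Emilin1, which encodes a glycoprotein at the border of elastin and microfibrils, rose from 264 ± 6.94 to 779 ± 35.01 CPM (log2FC 1.56, SE 0.04). Vcan (versican, a proteoglycan that binds fibrillin and fibulins) rose from 936 ± 17.8 to 1983 ± 38.5 CPM (1.08, SE 0.04). Adamtsl2, whose product binds fibrillin-1, fell from 47.4 ± 0.616 to 9.95 ± 1.36 CPM (-2.24, SE 0.09). Their adjusted p-values in the edgeR test were 8.9e-14, 1.0e-12 and 5.6e-12. Fbln7 was also more than 2-fold lower but rested on 10 counts per library on average. Atp7a, Furin and Emilin2 did not pass, at log2FC values of -0.18, 0.10 and 0.20.

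Enzymes that can degrade elastin, and their inhibitors, formed the last list. Of 15 genes 13 were tested, and by the edgeR threshold 9 were higher and 4 lower, where 33.2% of all tested genes were higher and 32.8% lower. The median log2FC was 0.74, against 0.00 over all tested genes. Mmp9, a gelatinase that cuts elastin, rose from 0.934 ± 0.232 to 51.9 ± 14.2 CPM (log2FC 5.78, SE 0.25), and Ctsk (cathepsin K) from 47.2 ± 1.33 to 102 ± 3.24 CPM (1.11, SE 0.05). Mmp12, the macrophage elastase, fell from 168 ± 4.15 to 61.4 ± 9.03 CPM (-1.46, SE 0.08), and Ctss (cathepsin S) from 95.7 ± 3.995 to 22.6 ± 1.26 CPM (-2.09, SE 0.06). Adjusted p-values in the edgeR test were 1.5e-11, 5.4e-11, 2.3e-10 and 2.1e-13. The abundant Mmp2 (log2FC 0.94), Ctsl (0.75) and Mmp14 (0.15) were also higher, by less than 2-fold. Mmp7 was lower (-1.22) but had 11.3 counts per library on average. Of the 7 macrophage markers 6 were lower, against 32.8% of all tested genes, with a median log2FC of -1.13 over the 7, while Adgre1 was higher, at 2.22. Their part in the differences of Mmp12 and Ctss was not tested.

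Of 5 inhibitors tested, 4 were higher (Slpi, Timp1, Timp2 and Cst3) and 1, Timp3, was lower, where 33.2% of all tested genes were higher and 32.8% lower. Slpi, an inhibitor of neutrophil elastase, rose from 1.32 ± 0.293 to 1293 ± 110 CPM (log2FC 9.92, SE 0.11), and Timp1 from 106 ± 1.96 to 844 ± 23.8 CPM (2.99, SE 0.04). Timp3, the inhibitor that is bound to the matrix, fell from 103 ± 1.13 to 50.9 ± 3.56 CPM (-1.01, SE 0.06). Adjusted p-values in the edgeR test were 1.7e-18, 3.4e-17 and 4.2e-10. Elane, the gene of neutrophil elastase itself, had no count in any library, where 3 counts correspond to 0.168 to 0.227 CPM.

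**Figure D4:**
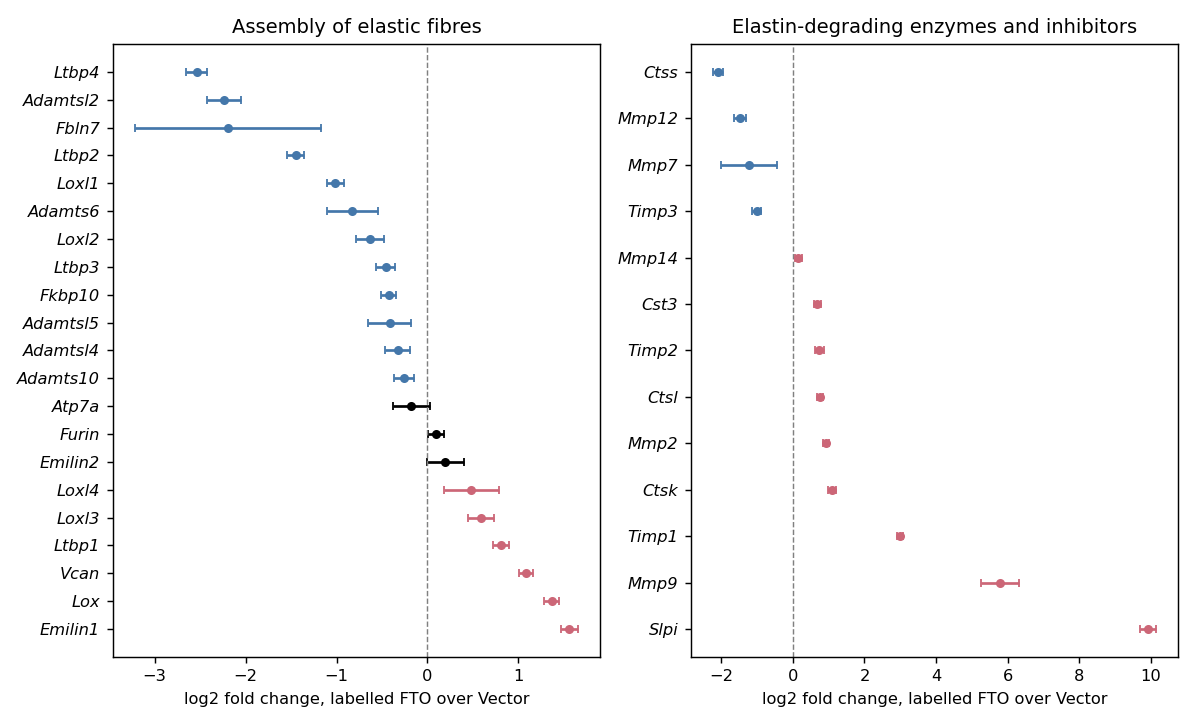
Log2FC between the groups (horizontal axis) with its 95% confidence interval for the tested genes of elastic fibre assembly (left, 21 genes) and for elastin-degrading enzymes and their inhibitors (right, 13 genes). Blue is lower, red is higher and black did not pass the adjusted threshold. The left panel runs from -2.54 for Ltbp4 to 1.56 for Emilin1, and the right panel from -2.09 for Ctss to 9.92 for Slpi.

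Lastly, the genes whose pattern was most like those of Eln and Fbn1 were sought among 10033 other genes with at least 100 counts on average. Likeness was the distance between log2 CPM values over the 6 libraries after each gene was centred on its Vector mean, so that genes with the same fold change and the same deviations in single libraries are near. Nearest to Eln were Ltbp4 (distance 0.0633), Mtss1l (0.111) and Edn1 (0.169), with log2FC values of -2.54, -2.58 and -2.63. Nearest to Fbn1 were Lpin2 (0.0777), Pdlim5 (0.0842) and Fam114a1 (0.0869), with log2FC values of -1.12, -1.16 and -1.15. With 6 libraries in 2 groups, these distances mostly reflect the size of the group difference.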

How the data were processed

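RNA was sequenced as 6 NRCF libraries, 3 Vector (genotype label WT) and 3 labelled FTO overexpression. Each table deposited by the authors holds unnormalized counts by gene symbol. The submitters' processing notes name Trimmomatic and the build rn6, and the aligner, counter, annotation and strand setting are not given in the sources used here, so genes that overlap another cannot be told apart from it. Counts were filtered with filterByExpr of edgeR (minimum count 10), scaled with TMM (trimmed mean of M-values) and compared by the two-sided quasi-likelihood test of edgeR 4.0.16 in R 4.3.3, with Benjamini-Hochberg adjustment over all 12941 tested genes and no covariate. CPM are TMM-scaled, and SE was the absolute log2FC divided by the root of F. Intervals of shares are Wilson 95% intervals. Floors and Wilson intervals cover counting error only. The 95% confidence intervals of log2FC and fold come from the quasi-likelihood fit. It takes the spread between libraries jointly over both groups and moderates it with that of other genes. Where a group spreads more widely, as for Fbn2, the SE, interval and p-value do not measure the spread of that group alone. The fit was tested on counts simulated with the same spread in both groups, so the wider spread of the libraries labelled FTO was not covered.

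The genes and lists were chosen with earlier results of these data known. Named are the 9 members, Fto, the genes of the assembly and degradation lists past the adjusted threshold with at least a 2-fold change and 100 counts on average, and the 3 genes nearest to Eln and to Fbn1 in pattern. Others, such as marker genes and further list genes, were named after their values were seen, and the shares among the fibulins, the spread against counting error and the comparison by gene span were added then. Upstream sequences were matched by symbol for 7 of 10 members. A planned description of the proteins was not made, as no protein sequences were used here. Alternatives were DESeq2 1.42.0, limma-voom (limma 3.58.1), DESeq2 size factors or library size in place of TMM, no filter or a mean of at least 10 counts, the replicate number as a block, and each library left out in turn. Within-group pairs of libraries differed by more than sampling noise (1.56 to 8.02 chi-square units per degree of freedom). Each counted as 1 replicate, though this spread does not show that they came from separate cultures.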

Additional observations from a re-analysis of the deposited data

How the results depend on the processing

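Of the 9 elastic fibre and microfibril genes, 8 passed the adjusted threshold in each of the 13 alternatives, the replicate block among them. Pairing by replicate number was not detected. Deviations from the group means correlated at 0.00628, -0.0869 and 0.0440 for equal numbers, and from -0.131 to 0.122 for unequal numbers. The 8 genes kept their direction throughout, with log2 fold changes from -2.63 to -2.51 for Eln, -1.21 to -1.04 for Fbn1, -0.96 to -0.47 for Fbn2, -2.04 to -1.98 for Fbln2, -2.05 to -1.98 for Fbln5, 0.83 to 0.89 for Efemp2, 1.03 to 1.12 for Fbln1 and 2.32 to 2.47 for Efemp1. The adjusted p-value of Fbn2 ran from 5.2e-07 to 0.0258. Mfap5, which did not pass in any alternative, ranged from -0.0955 to 0.0195: it was at 0.0195 without Vector replicate 1 and at 0.00213 without FTO replicate 3, so its sign was not settled, and the cause was not tested. The number of assembly genes past the threshold was 18 to 21, that of degrading enzymes and inhibitors 13 in each alternative, and Fto did not pass in any (0.0508 to 0.0780). Over all tested genes, DESeq2 called 7795 of 12941 and the fit without a filter 9009 of 17166. With FTO replicate 3 left out, 8719 of 13107 were called. The counts of members and list genes have to be read against this large background. Depth limits Efemp1 in Vector, Mfap5 and the genes of about 10 counts, Fbln7 and Mmp7.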

Other observations

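The libraries labelled FTO differed among themselves in a way that followed the genomic span of genes, and the fibrillin genes moved along with it. Of the tested genes, 95.4% could be given a span from RefSeq, and 9765 of these had at least 100 counts on average. Fbn1 and Fbn2 were longer than 95.03% and 95.5% of them. Over the 977 longest genes the median log2 ratio of FTO replicate 3 to FTO replicate 2 was 0.134, and over the 977 shortest it was -0.114, while the same ratio was 0.341 for Fbn1 and 1.01 for Fbn2. The Vector libraries also differed along span, by less: the medians over the longest and the shortest genes were 0.0273 and -0.0381 for Vector replicate 2 over 1, 0.0229 and -0.0125 for 3 over 1, and -0.00448 and 0.0161 for 3 over 2. For FTO replicate 2 over 1 they were -0.0811 and 0.0546, and for 3 over 1 they were 0.0677 and -0.0528. Between the groups, the libraries labelled FTO over Vector, the median log2 difference was -0.258 over the longest and 0.145 over the shortest genes, where Fbn1 was at -1.13, Fbn2 at -0.69 and Efemp2, which is longer than only 16.7% of genes, at 0.86. Eln (66.5%), Fbln2 (74.6%), Fbln5 (81.2%), Efemp1 (81.3%) and Fbln1 (81.4%) are of intermediate to long span and moved in both directions. This comparison was made after the spread of Fbn2 was seen, transcript length and RNA integrity were not measured here, and the part of gene span in the differences of the fibrillins was not tested.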
